A study of Mus musculus with 8 samples.

Results

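Glycogen metabolism was described through 8 genes of the liver transcriptome: Gys2, Pygl, Gbe1, Ugp2, Phka2, Ppp1r3b, Ppp1r3c and Ppp1r3g. They were taken from the gene count table by their gene names, and all 8 were found, each in 1 row, among 28073 rows. The libraries were made from liver RNA of C57BL/6, an inbred mouse strain, at an age of 21 to 22 weeks. There were 4 libraries from mice on the control diet, which was low in fat, and 4 from mice on the high-fat diet, and both groups share strain, tissue and age. The composition and length of the diets, the sex of the mice, their feeding state and the time of collection are not stated in the labels.

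Glycogen is the branched glucose store of the liver, filled after meals and drained between them. UDP-glucose is made by the pyrophosphorylase encoded by Ugp2, joined into chains by the liver glycogen synthase (Gys2) and branched by the branching enzyme (Gbe1). The liver glycogen phosphorylase (Pygl) releases glucose 1-phosphate again, once phosphorylase kinase, whose liver regulatory alpha subunit is encoded by Phka2, has switched it on. Ppp1r3b, Ppp1r3c and Ppp1r3g encode glycogen-targeting subunits, which bring protein phosphatase 1 to the glycogen particle, where it activates the synthase and inactivates the phosphorylase.

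Promoter windows of 300 bases, from 250 before to 50 after a start site, were taken from RefSeq (GRCm38.p6) and matched 6 of the 8 genes, Gys2 and Ppp1r3b having no entry. Of the windows, 2 are printed here. Gbe1 was the gene of the set that passed the test between the diets. The window of Ppp1r3c was the only one of the set to hold a motif searched for. Ppp1r3c had a large difference that did not pass. Ppp1r3g, not printed and without such a motif, had a larger fitted difference (log2 fold change -1.48 against -1.23), which did not pass either. Capitals mark the E-box, the letters CACGTG, which read the same on both strands and are bound by clock proteins and their relatives.
Ppp1r3c, chr19:36736555-36736854, minus strand: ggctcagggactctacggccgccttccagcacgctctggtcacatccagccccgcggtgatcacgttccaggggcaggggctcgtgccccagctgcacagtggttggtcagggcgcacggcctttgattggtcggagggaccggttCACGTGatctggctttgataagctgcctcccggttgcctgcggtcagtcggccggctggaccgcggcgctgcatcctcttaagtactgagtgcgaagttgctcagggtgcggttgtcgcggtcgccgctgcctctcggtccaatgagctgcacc
Gbe1, chr16:70313699-70313998, plus strand: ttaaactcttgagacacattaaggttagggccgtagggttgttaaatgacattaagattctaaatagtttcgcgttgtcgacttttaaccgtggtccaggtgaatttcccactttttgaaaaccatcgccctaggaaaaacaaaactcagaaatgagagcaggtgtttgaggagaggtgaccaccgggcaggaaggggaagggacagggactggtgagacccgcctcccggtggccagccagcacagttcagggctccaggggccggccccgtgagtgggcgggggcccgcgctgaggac
The E-box of Ppp1r3c begins at position -104 from the start site, and 7.15% of 32851 RefSeq promoter windows hold this motif. The D-box TTATGTAA (0.938% of windows), the cyclic AMP response element TGACGTCA (1.79%) and the FOXO site GTAAACA (3.65%), each searched on both strands, were in neither window. None of the 4 motifs was in the windows of Pygl, Ugp2 (2 windows), Phka2 or Ppp1r3g.

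Total counts ran from 26643020 to 30013106 per library, so that 1 count stood for 0.0338 to 0.0388 CPM, the read count scaled to a common library size by TMM factors. In bulk liver RNA, fewer cells of a type and less RNA per cell cannot be told apart. Of 6 hepatocyte markers 2, Cps1 and Serpina1c, were called lower on the high-fat diet, beside 5.86% of all tested genes. Ttr was 0.780-fold without overlap (edgeR adjusted p = 0.0541) and Apoa1 0.704-fold (edgeR adjusted p = 0.0826), and neither passed. Hnf4a did not pass either (1.01-fold, edgeR adjusted p = 0.921). The unscaled counts of all 6 summed to 1813609 to 2922312 in the control and 1560427 to 1625923 in the high-fat libraries. Most of these counts were Alb, which was not called (0.691-fold, edgeR adjusted p = 0.151). Of 6 adipocyte markers 2 were tested, Lipe and Fabp4, and neither was called. Fabp4 was 1.63-fold higher on the high-fat diet without overlap (edgeR adjusted p = 0.0550). The summed counts of the 6 were 598 to 809 and 788 to 1240, but Adipoq reached 42 in control replicate 1 and 32 in control replicate 4, with a count of at most 10 in every other library. For 6 skeletal muscle markers the sums were 7 to 27 and 9 to 25, with Acta1 at 0 in 7 libraries. No Kupffer, stellate, endothelial, cholangiocyte or erythroid marker was called. The acinar marker Cela1 was lower on the high-fat diet (log2 fold change -1.60, edgeR adjusted p = 0.0138), while the other 3 acinar markers had at most 2 counts in any library. The part of these markers in the results was not tested.

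Between the diets, 1 of the 8 glycogen genes passed the quasi-likelihood test of edgeR, where a gene was called at a Benjamini-Hochberg adjusted p under 0.05 over 14088 genes. This was Gbe1, which rose. The share of all tested genes called in either direction was 9.61%, with 3.75% called higher and 5.86% called lower, so that 1 call among 8 genes is near the background. Gbe1 was also the only gene of the set whose 4 control and 4 high-fat libraries did not overlap, against 17.3% of all tested genes, 7.28% with the high-fat libraries higher. The median log2 fold change of the 8 genes was -0.08, beside 0.0069 over all tested genes, and their values ran from -1.48 to 0.46.

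**Figure D1:**
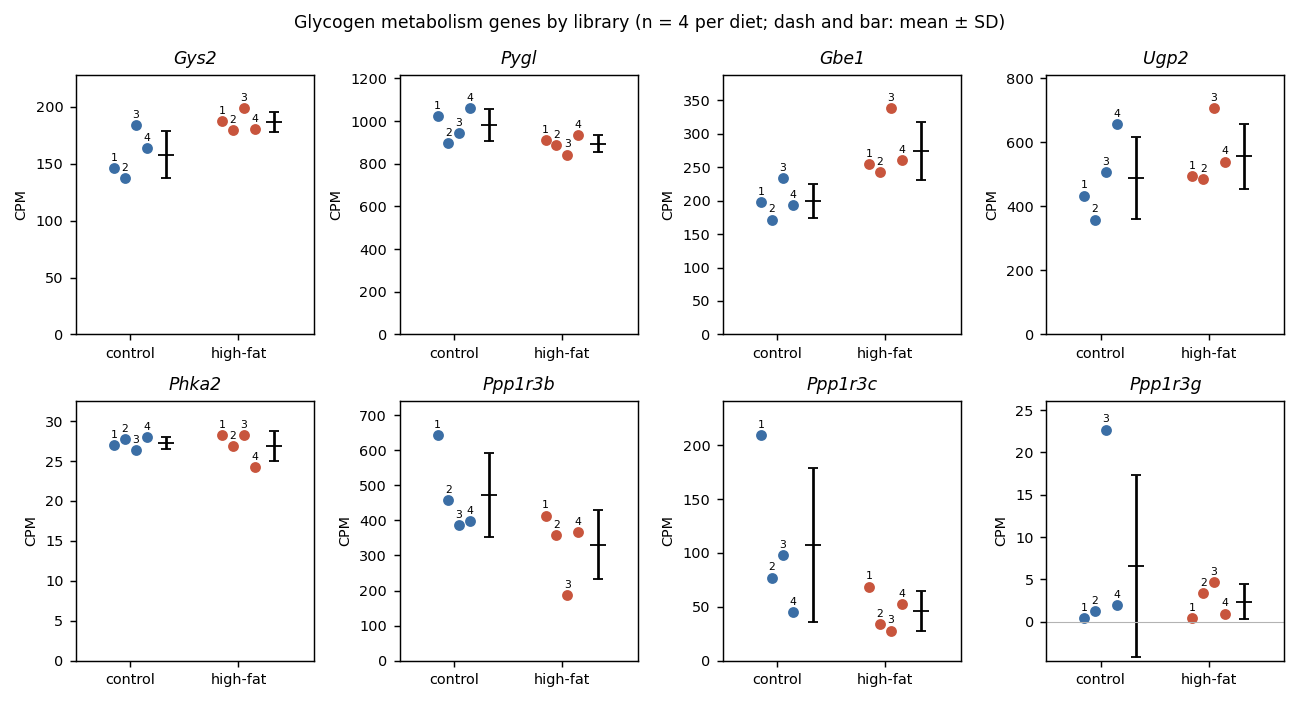
CPM of the 8 glycogen genes in each library, with control libraries in blue, high-fat libraries in red, replicate numbers above the points, and mean ± SD (n = 4) as a dash with bars. The high-fat points of Gbe1, from 243 to 338 CPM, lie above all control points, and for the 7 other genes the diets overlap.

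Gbe1 (chromosome 16, 70313949 to 70569716, plus strand, mm10) had 197, 172, 233 and 193 CPM in control replicates 1 to 4, and 254, 243, 338 and 260 CPM in high-fat replicates 1 to 4. Every high-fat library lay above every control library, and high-fat replicate 3 stood highest. The means were 199 ± 25.5 and 274 ± 43.2 CPM (SD, n = 4 each), a log2 fold change of 0.46 ± 0.12 (SE), or 1.38-fold (edgeR adjusted p = 0.0475). The call lay near the threshold. It held in 1 of the 8 fits with 1 library left out, that without control replicate 3 (edgeR adjusted p = 0.0264), and in the others the log2 fold change was 0.34 to 0.51 with edgeR adjusted p from 0.0608 to 0.115. Without control replicates 1 and 4, the libraries with the most Adipoq counts, the log2 fold change was 0.43 and the edgeR adjusted p = 0.188.

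Gys2 (chromosome 6, 142422613 to 142473109, minus strand), the synthase, had 146, 138, 184 and 163 CPM in the control and 188, 180, 199 and 181 CPM in the high-fat libraries. Control replicate 3 reached into the high-fat range, and the other 3 controls lay below it. The log2 fold change was 0.24 ± 0.09 and did not pass (edgeR adjusted p = 0.141). Without control replicate 3 it was 0.32 and passed (edgeR adjusted p = 0.0356). The high-fat libraries lay closer together, with a coefficient of variation of 4.67% against 13.0% among controls.

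Ugp2 (chromosome 11, 21321138 to 21371201, minus strand) supplies the UDP-glucose for the chains. It had 433, 359, 508 and 658 CPM in the control and 495, 485, 706 and 540 CPM in the high-fat libraries. The groups overlapped over most of their range, with control replicate 4 and high-fat replicate 3 highest. Its log2 fold change of 0.18 ± 0.19 did not pass (edgeR adjusted p = 0.595; unadjusted 95% interval -0.24 to 0.61).

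Neither gene of the breakdown side passed. Pygl (chromosome 12, 70190811 to 70231488, minus strand), the phosphorylase, was the most abundant gene of the set by CPM. It had 1023, 896, 944 and 1060 CPM in the control and 912, 887, 843 and 934 CPM in the high-fat libraries. The groups overlapped, and the log2 fold change of -0.13 ± 0.08 did not pass (edgeR adjusted p = 0.350; unadjusted 95% interval -0.31 to 0.048). Phka2 (chromosome X, 160502166 to 160598878, plus strand), the kinase subunit, varied least among controls. It had 27.0, 27.8, 26.4 and 28.0 CPM in the control and 28.2, 26.9, 28.3 and 24.3 CPM in the high-fat libraries. The diets could not be separated, the log2 fold change being -0.02 ± 0.07 (edgeR adjusted p = 0.883; unadjusted 95% interval -0.17 to 0.13). Its sign turned positive with upper-quartile factors and with library totals alone.

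The 3 phosphatase targeting subunits had the largest fitted differences of the set, and none passed. Ppp1r3c (chromosome 19, 36731737 to 36736653, minus strand), whose E-box window is printed above, had 210, 77.0, 97.8 and 45.1 CPM in the control libraries. The high-fat libraries had 68.9, 33.8, 27.9 and 52.5 CPM. The other 3 controls lay above the highest high-fat library, while control replicate 4 lay within the high-fat range. The log2 fold change was -1.23 ± 0.45, or 0.426-fold (edgeR adjusted p = 0.120). It was -1.49 without control replicate 4, where it passed (edgeR adjusted p = 0.0490), and -0.68 without control replicate 1 (edgeR adjusted p = 0.272). It also passed without a low-count filter (-1.23, edgeR adjusted p = 0.0494). Of the 2 libraries with the most Adipoq counts, control replicate 1 had the highest and control replicate 4 the lowest control level of Ppp1r3c.

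Ppp1r3b (chromosome 8, 35375739 to 35388139, plus strand), long described as the liver's main glycogen-targeting subunit, had 644, 458, 387 and 399 CPM in the control libraries. The high-fat libraries had 413, 357, 187 and 366 CPM. Control replicate 1 was the highest and high-fat replicate 3 the lowest of the 8, and the rest lay close together. The log2 fold change of -0.51 ± 0.24 did not pass (edgeR adjusted p = 0.230), and it was negative in all 17 alternatives, from -0.63 to -0.32.

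Ppp1r3g (chromosome 13, 35958839 to 35970388, plus strand), described in mouse liver as a subunit that follows feeding, was low in most libraries. Its counts were 10, 33, 662 and 53 in control replicates 1 to 4, and 12, 96, 139 and 26 in high-fat replicates 1 to 4. Control replicate 3 alone, at 22.7 CPM, stood above a range of 0.388 to 4.70 CPM that held the other 7 libraries of both diets. Plin1 and Adipoq had 0 counts in that library. The log2 fold change was -1.48 ± 1.12 (edgeR adjusted p = 0.460) and turned to 0.99 without control replicate 3 (edgeR adjusted p = 0.489), so the direction for Ppp1r3g rests on that library.

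**Figure D2:**
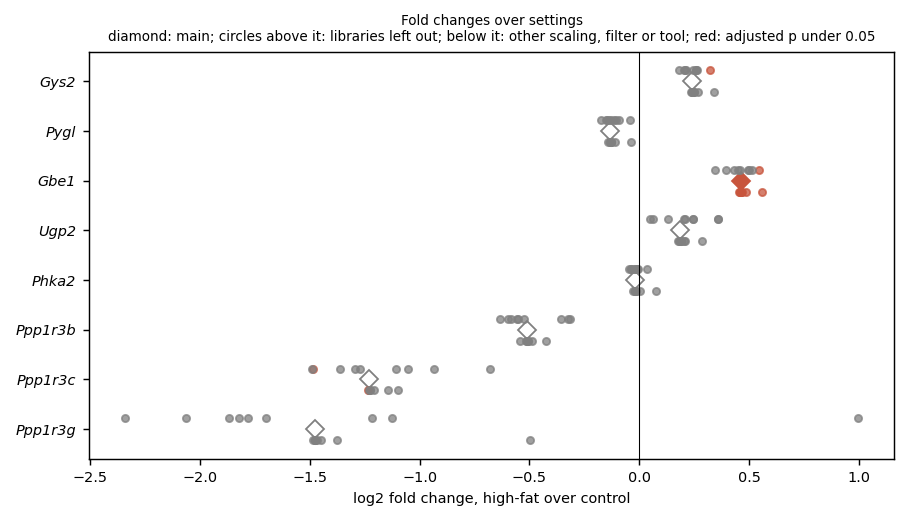
Log2 fold changes, high-fat over control, of the 8 glycogen genes on the x axis. Diamonds give the values reported here, circles above each diamond the fits with libraries left out, circles below it other scaling, filters or tools, and red an adjusted p under 0.05. Ppp1r3g runs from -2.34 to 0.99, while Gbe1 stays between 0.34 and 0.56.

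High-fat replicate 3 held an extreme for 7 of the 8 genes. It had the highest CPM of the 8 libraries for Gys2, Gbe1, Ugp2 and Phka2, and the lowest for Pygl, Ppp1r3b and Ppp1r3c. Its TMM factor, 1.067, was also the highest, in a range of 0.955 to 1.067. Control replicate 2 was lowest for Gys2, Gbe1 and Ugp2, and control replicate 1 highest for Ppp1r3b and Ppp1r3c. The enzymes of chain building and the targeting subunits b and c thus stood at opposite ends of the scale in high-fat replicate 3. Some markers of other cells were extreme there too, while others of the same lists were not. The stellate cell marker Col1a1 was at 54.9 CPM, against 3.94 to 13.7 CPM in the other 7 libraries. The adipocyte marker Fabp4 was at 26.9 CPM, against 8.88 to 19.2 CPM. The cholangiocyte marker Spp1 was at 81.6 CPM, against 30.0 to 58.3 CPM, while the erythroid marker Hbb-bs was lowest at 5.41 CPM. Des and Lipe were also highest there, and Hba-a1 and Hbb-bt also lowest. The cholangiocyte markers Krt19, Krt7 and Epcam were instead highest in control replicate 1, and Adipoq had 3 counts in high-fat replicate 3. Lrat, Dcn and Alas2 lay within the range of the other libraries. The clock gene Dbp was highest in high-fat replicate 3 as well, at 30.9 CPM, and the part of these genes in the glycogen values was not tested.

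Ratios of counts within a library do not depend on how libraries are scaled, and 3 were compared between the diets by exact two-sided permutation tests over 70 splits (smallest possible p = 0.0286). The synthase to phosphorylase ratio, Gys2 over Pygl, was 0.143, 0.154, 0.195 and 0.154 in the control and 0.206, 0.203, 0.236 and 0.193 in the high-fat libraries. Control replicate 3 lay just above high-fat replicate 4, and all other controls lay below every high-fat library. The mean log2 ratio was -2.64 ± 0.20 and -2.26 ± 0.12 (SD, n = 4 each), a difference of 0.38 with an exact permutation p = 0.0571, adjusted to 0.171 over the 3 ratios. The Ppp1r3c to Ppp1r3b ratio was 0.326, 0.168, 0.253 and 0.113 in the control and 0.167, 0.0947, 0.149 and 0.143 in the high-fat libraries. These groups overlapped, and the log2 difference of -0.55 had an exact permutation p = 0.200 (adjusted 0.300). The Ppp1r3g to Ppp1r3b ratio gave a log2 difference of 0.11 with within-group SDs of 2.73 and 2.02 (exact permutation p = 1).

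**Figure D3:**
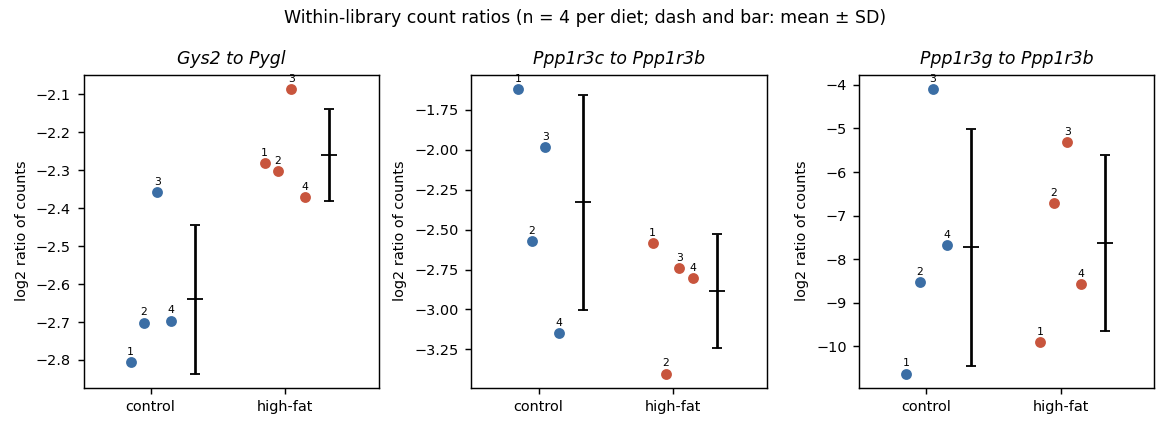
Log2 ratios of counts within each library for Gys2 to Pygl, Ppp1r3c to Ppp1r3b and Ppp1r3g to Ppp1r3b, with control in blue, high-fat in red, replicate numbers above the points and mean ± SD (n = 4). Control replicate 3 of the Gys2 to Pygl ratio, at 0.195 before logs, is the control that reaches the high-fat range.

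Levels between genes were compared per kilobase of exon. In control livers Ugp2 was at 159 ± 41.7 and Pygl at 142 ± 10.8 CPM per kilobase (SD, n = 4), a pair that overlapped within its spread. Ppp1r3b at 75.9 ± 19.1 and Gys2 at 59.4 ± 7.73 CPM per kilobase followed and overlapped each other as well. Ppp1r3c at 39.4 ± 26.2 and Gbe1 at 37.1 ± 4.76 CPM per kilobase could not be ordered either. Phka2 was far below at 4.50 ± 0.122 CPM per kilobase, and Ppp1r3g lower still in every library but control replicate 3, where it reached 8.43 CPM per kilobase. On the high-fat diet Ugp2, at 181 ± 33.4, and Pygl, at 130 ± 5.70 CPM per kilobase, stayed on top, and Gbe1, at 51.1 ± 8.08, stood beside Ppp1r3b, at 53.3 ± 15.9 CPM per kilobase.

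The liver forms outnumbered their muscle and brain counterparts. The muscle synthase Gys1 was at 0.460 ± 0.106 CPM per kilobase in controls, against 59.4 for Gys2. The brain phosphorylase Pygb was at 2.07 ± 0.538 and the muscle phosphorylase Pygm at 0.376 ± 0.0914 CPM per kilobase, against 142 for Pygl. Of the kinase subunits, the shared beta subunit Phkb, at 4.51 ± 0.145, and the liver catalytic subunit Phkg2, at 4.19 ± 0.606 CPM per kilobase, lay at the level of Phka2. The muscle forms Phka1 and Phkg1 were at 1.81 ± 0.189 and 0.0846 ± 0.0140 CPM per kilobase. Of the 6 tested targeting subunits, Ppp1r3b made up 66.3% ± 10.4 of their sum per length in controls and 74.2% ± 4.26 on the high-fat diet. Ppp1r3c made up 30.9% ± 9.42 and 23.2% ± 4.23, with overlapping libraries. Ppp1r3d, Ppp1r3e and Ppp1r3f together with Ppp1r3g filled the rest, and Ppp1r3a, the muscle subunit, had 3 to 14 counts per library and was not tested.

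Outside the 8 genes, 35 others of the pathway were looked up, of which 34 were tested, none rose and 2 fell. Their median log2 fold change was -0.01, and the 2 calls stand beside the 9.61% of all genes called. None of the 6 tested synthesis and breakdown enzymes among them passed.

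G6pc, the catalytic subunit of glucose 6-phosphatase, which frees glucose for export, fell from 1264 ± 414 CPM in controls to 510 ± 215 CPM (log2 fold change -1.31 ± 0.30, edgeR adjusted p = 0.0241). The control libraries had 1225, 920, 1856 and 1054 CPM and the high-fat libraries 830, 396, 375 and 441 CPM. The groups did not overlap, and high-fat replicate 1 stood apart from its group. The call was lost when high-fat replicate 2, 3 or 4 was left out (log2 fold changes of -1.24 to -1.19, where edgeR gave an adjusted p between 0.0693 and 0.0736). It was also lost without control replicates 1 and 4, at -1.45 (edgeR adjusted p = 0.0646). None of the other 3 genes of glucose entry and exit passed, among them 2 transporters: the glucose transporter Slc2a2 had a log2 fold change of -0.01 and the glucose 6-phosphate transporter Slc37a4 -0.01.

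Adra1b, the alpha-1B adrenergic receptor, through which catecholamines raise calcium and activate phosphorylase kinase in hepatocytes, fell from 60.1 ± 5.42 to 33.6 ± 2.38 CPM. Its libraries were 57.2, 63.0, 54.1 and 66.0 CPM in controls and 36.0, 35.1, 32.0 and 31.1 CPM on the high-fat diet, so that the lowest control was far above the highest high-fat library. The log2 fold change was -0.84 ± 0.08 (edgeR adjusted p = 0.00100), and it passed in all 17 alternatives, with values from -0.89 to -0.75. The glucagon receptor Gcgr (-0.06) and the insulin receptor Insr (0.02) did not pass, and neither did Akt2, Prkaca, Prkacb and Prkar1a, with log2 fold changes from -0.18 to 0.13.

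None of 12 tested kinase and phosphatase subunits outside the set passed. Phkb had 33.5 ± 1.07 and 38.5 ± 1.81 CPM without overlap (log2 fold change 0.20 ± 0.06, edgeR adjusted p = 0.0540). The phosphatase catalytic subunits Ppp1ca, Ppp1cb and Ppp1cc had log2 fold changes of -0.03, 0.03 and -0.05, and the synthase kinases Gsk3a and Gsk3b 0.10 and 0.12. Of 5 lysosomal and glycogen-binding proteins none passed. Stbd1, a protein that tethers glycogen to membranes, stood at 0.34 ± 0.12 on the log2 fold scale (edgeR adjusted p = 0.0960), and Epm2aip1, a partner of the glycogen phosphatase laforin, at -0.29 ± 0.09 (edgeR adjusted p = 0.0710). Glycogenin (Gyg), which primes new particles, had 0.05 and the phosphoglucomutase gene Pgm2 -0.05. Phkb was called higher with upper-quartile factors, with DESeq2, with a filter of 1 CPM in 4 libraries and with library totals alone. Epm2aip1 was called with DESeq2 and without control replicate 3. Stbd1 and Prkacb were called with library totals alone, which put the median over all genes at 0.10 (log2).

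**Figure D4:**
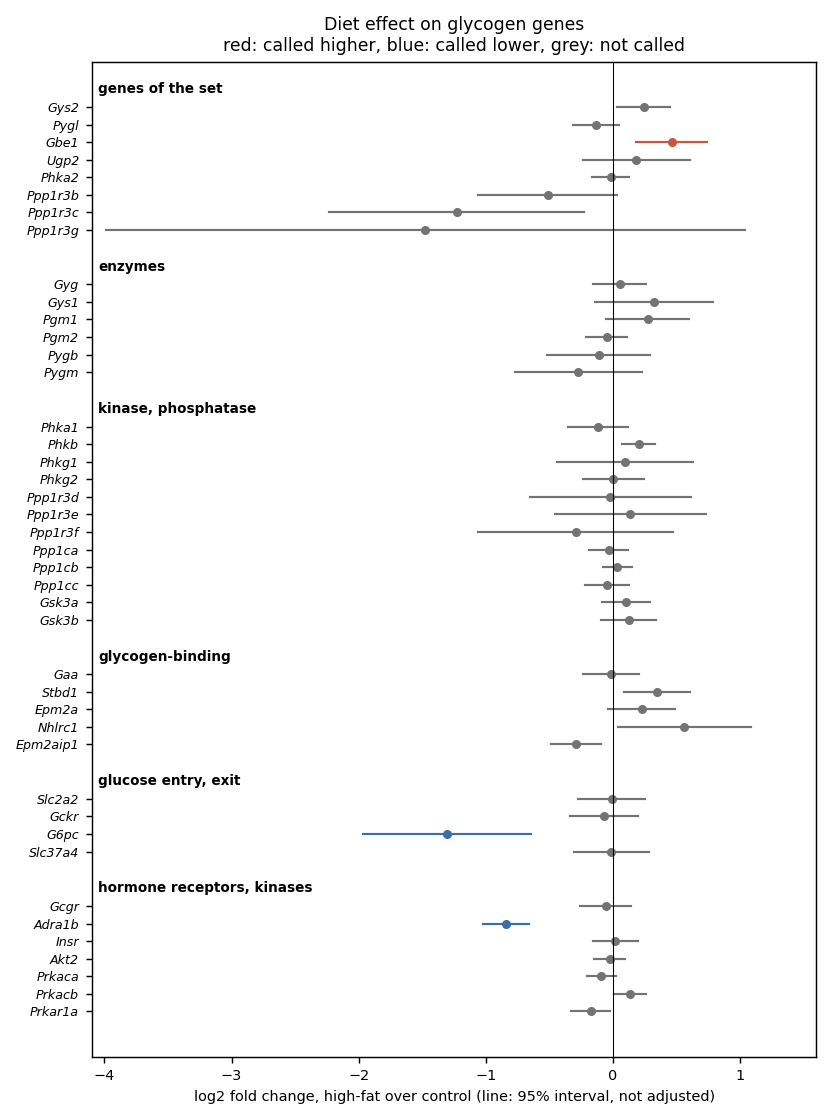
Log2 fold changes (high-fat over control, x axis) with unadjusted 95% intervals for the 8 glycogen genes and 34 others of the pathway, grouped by role. Red marks the gene called higher (Gbe1), blue those called lower (G6pc and Adra1b) and grey those not called.

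Some clock genes and some genes of fasting and feeding were called between the diets in the same libraries, and their part in the glycogen results was not tested. Of 17 clock genes 7 rose, 3 fell and 7 were not called, beside 3.75% of all tested genes called higher and 5.86% called lower. Of the 4 clock genes with the smallest p, Dbp rose most (log2 fold change 3.75 ± 0.41, edgeR adjusted p = 0.00173). The others of these were Ciart at 2.70, Per3 at 2.24 and Tef at 1.35 (edgeR adjusted p = 0.00248, 0.00327 and 0.00429). Nr1d1, outside these 4, rose by 2.28 (edgeR adjusted p = 0.0121). In control replicate 4, the control lowest in Ppp1r3c, Dbp was at 1.94 CPM, against 0.815 to 1.27 CPM in the other controls and 9.26 to 30.9 CPM on the high-fat diet. High-fat replicate 3 had the most Dbp and the least Ppp1r3c, but other libraries did not keep this order. Control replicate 3 was above control replicate 2 in both Dbp (1.27 against 1.22 CPM) and Ppp1r3c (97.8 against 77.0 CPM). High-fat replicate 4, with the least Dbp of its group, had less Ppp1r3c than high-fat replicate 1 (52.5 against 68.9 CPM). Of 14 fasting and feeding genes 4 fell, none rose and 10 were not called, beside the same 5.86% called lower. Irs2, an insulin receptor substrate that is higher in fasting, fell from 31.5 ± 11.1 to 8.24 ± 2.92 CPM (-1.93 ± 0.30, edgeR adjusted p = 0.00636). Ppargc1a, a coactivator of fasting genes, fell too (log2 fold change -1.06, edgeR adjusted p = 0.00936). Pklr, liver pyruvate kinase, and Tat, tyrosine aminotransferase, were the others, at log2 fold changes of -0.47 and -0.91 (edgeR adjusted p = 0.0241 and 0.0436). In control replicate 3, the library high in Ppp1r3g, Igfbp1 was at 393 CPM and G6pc at 1856 CPM, the highest of the 8 libraries for both. Ppargc1a (13.0 CPM) and Angptl4 (170 CPM) were also highest there. Tat, at 1755 CPM, was instead at its lowest control level. Irs2 (29.8 CPM), Pdk4 (14.4 CPM) and Pck1 (2309 CPM) lay within the range of the other controls.

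For each of the 8 genes, the 3 genes with the most similar log2 CPM over the 8 libraries were sought where the mean CPM was 1 or more. This is a description of 8 libraries that share their diets and their scaling. The 3 were picked as the highest r of all genes searched. A high r, also within diets, and a shared direction between the diets thus follow in part from that choice. Pearson's r was 0.944 to 0.994, and 0.938 to 0.994 after each diet's mean was taken off. Nearest to Gbe1 were Smap1, Pogk and Ptp4a2, and of these Smap1 (log2 fold change 0.34, edgeR adjusted p = 0.0475) and Pogk (0.59, edgeR adjusted p = 0.0380) also rose. Nearest to Gys2 were Nek7, Cldn2 and Ppm1a, and to Pygl Kynu, Enpep and Eif4a1. Nearest to Ugp2 were Gsto1, Zfp882 and Rida, and to Phka2 Lix1l, Mustn1 and Ocrl. Nearest to Ppp1r3b were Shroom1, 1700066M21Rik and Slc30a10, to Ppp1r3c Gm29103, Derl1 and Dtx4, and to Ppp1r3g Ube2q1, Odf2 and Hyal2. None of these 24 was another gene of the pathway lists.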

How the data were processed

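The authors deposited 1 table of whole-number read counts per gene for 8 liver libraries, whose columns carry the sample titles. Per the labels' protocols, flash-frozen livers gave total RNA (mirVana) for TruSeq Stranded Total RNA libraries. The submitters' processing notes name the build mm10 and, as tools, TopHat2 2.1.1, Trimmomatic 0.32 and bcl2fastq 2.20.0.422. How reads were counted, with which strand setting and annotation, is not given in the sources used here. Of the 8 genes, Pygl and Ugp2 overlap other rows of the table, which held at most 0.00852% of their counts.

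Groups follow the labelled diet, and replicate numbers follow sample order and pair nothing. The labels name no batch. The test was edgeR 4.0.16 (R 4.3.3): filterByExpr, which kept 14088 genes and 99.9% of counts, TMM scaling, then glmQLFit and glmQLFTest on the 8 libraries with diet as the only term. Calls were made at a Benjamini-Hochberg adjusted p under 0.05. SE is the absolute log2 fold change over the square root of F. Exon lengths, the union of all annotated exons of a gene, came from GENCODE M21 (mm10). They were matched by identifier for 43 of 43 genes, 39 with the same gene coordinates. Ppp1r3c was among those whose coordinates differed. Its level per kilobase and the shares of the targeting subunits thus rest on a length from a differing gene entry. Alternatives were other scaling factors, DESeq2 1.42.0, limma-voom (limma 3.58.1), other filters, removal of the 10 most abundant genes, libraries left out and an adjusted p of 0.01.

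The named genes were the 8 genes of the set, called genes of the 5 pathway lists, the 3 genes most alike each and up to 4 clock and 4 fasting and feeding genes by smallest p. Of the pathway lists, 2 genes are not reported here and stay out of the lists' counts. Further list genes were picked with their values in view. The genes and lists were chosen with earlier results of these data known. On simulated counts for 14088 genes of this comparison, edgeR called 75% of 100 genes given a log2 change of 1 and 98% of 100 given a change of 2. Of its calls, 5.46% were false. The changed genes were drawn only from those above a minimum mean count. Smaller changes were not simulated, so these shares do not describe them. The libraries of a diet were treated as biological replicates, and the p-values weigh the diet difference against the spread between them.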

Additional observations from a re-analysis of the deposited data

Results flagged for a closer look

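Searched were 26 groups of 4 libraries: the 8 genes of the set, G6pc, Adra1b and the 3 ratios, in each diet. Of these groups, 3 held a library far from the others in CPM or in the ratio before logs. A chance rate of about 1 in 20 groups holds only for normally distributed values. The values were not tested for this, so the 3 flags are not weighed against that rate. Ppp1r3g was at 22.70 CPM in control replicate 3 and at 0.388 to 1.94 CPM in the other controls. The Ppp1r3g to Ppp1r3b count ratio was 0.05877 in the same library, against 0.000633 to 0.00490 in the other controls and rests on the same Ppp1r3g count. G6pc was at 830.1 CPM in high-fat replicate 1 and at 375 to 441 CPM in the other high-fat libraries. No explanation of these values was tested.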

How the results depend on the processing

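Of the 8 genes 1 was called, and 0 to 2 with 1 library left out, 2 without a low-count filter (Ppp1r3c added), 0 without control replicates 1 and 4 and 0 at an adjusted p of 0.01. Of the other 34 tested pathway genes 2 were called, and 1 to 3 with 1 library left out, 5 with library totals alone, 4 with DESeq2, 1 without control replicates 1 and 4 and 1 at an adjusted p of 0.01. Of all genes 1354 were called, 725 to 1479 with 1 library left out (889 and 786 without control replicates 1 and 2 in turn, and 860, 725 and 835 without high-fat replicates 2, 3 and 4 in turn), 743 without control replicates 1 and 4 and 369 at an adjusted p of 0.01. The split was 529 higher and 825 lower, but 1111 and 534 with library totals alone. Gbe1 and G6pc were called under every scaling, filter and tool tried, and Adra1b in all 17 alternatives.

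Signs turned only for values that did not pass. The log2 fold change of Phka2 was 0.0043 with upper-quartile factors, 0.076 with library totals alone and from -0.045 to 0.034 with 1 library left out. That of Ppp1r3g ran from -2.06 to 0.99 with 1 library left out. The Ppp1r3g to Ppp1r3b log2 ratio difference ran from -0.86 to 1.32 with 1 library left out and was -1.31 without control replicates 1 and 4. With 1 library left out, the exact permutation tests of the ratios cannot pass and say nothing of stability. The cause of these changes was not tested. No paired analysis was possible because the labels give no replicate numbers. Depth limits Ppp1r3g, which had 10 counts in control replicate 1.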
